A study of Mus musculus with 3 samples.

Results

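PDGFRA-high subepithelial fibroblasts of the developing mouse small intestine were taken as cells with at least 2 UMIs of Pdgfra, the receptor for platelet-derived growth factor A, and at least 3 UMIs in the sum of Bmp3, Nrg1, Bmp5, Bmp7, Wnt5a and F3. They also had at most 2 UMIs of the epithelial gene Epcam and less than 0.2% of their UMIs from Actg2, the actin of gut muscle. A UMI (unique molecular identifier) is a tag that marks 1 captured RNA molecule. The members were chosen by these measured UMI counts, 1320 of 28436 cells in all: 764 of 8447 at the embryonic stage E15.5 (days after conception), 522 of 11598 at E17.5 and 34 of 8391 at postnatal day 7 (P7). Each stage was 1 droplet library (Chromium 3′ v2) of whole small intestine from untreated wild-type mice, and neither strain, sex nor number of animals was given in the sources used here. Viable cells were sorted as an epithelial fraction (Epcam positive) and a mesenchymal one that lacked Epcam, CD31 (endothelium) and CD45 (blood cells), and both fractions were combined. The series asks how the gut elongates and centres on the genes Slmap and Stk24.

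These cells are fibroblasts that lie directly under the gut epithelium and are known as telocytes or as the cells of villus clusters. Epithelial Hedgehog ligands act on them through the receptor gene Ptch1, and in mouse they form the clusters at the tips of growing villi. They secrete BMP and non-canonical WNT ligands and the EGF family ligand neuregulin 1, and BMP signals hold back division and favour maturation of the epithelium above.

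With 1 library per stage there was no test between stages, and no p-value was made from cells. UMIs were summed over the PDGFRA-high cells of a library and scaled to 1000000 UMIs of those cells (CPM). The cells were set beside other collagen-rich cells of the same library, which met the same limits on Epcam and Actg2, had at least 0.5% of their UMIs from Col1a1, Col1a2 and Col3a1, and did not meet the rule. There were 1578, 3408 and 1014 of these at E15.5, E17.5 and P7. Only 181 of 764, 81 of 522 and 27 of 34 PDGFRA-high cells passed that collagen limit themselves, so the comparison class was selected for high matrix RNA. A gene is called higher or lower where the ratio passed 1.5-fold and its exact interval, at 95% and covering counting error only, left out a log2 ratio of 0. Ratios of single genes and counts in gene lists were read only for genes with at least 50 UMIs in both sums together. Such genes were also no more than 5 times higher in epithelial, muscle or neural cells of the library, which limits RNA carried over in the droplets. Counts over all genes kept the minimum of 50 UMIs but left out the 5-fold limit.

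The genes of the rule chose the cells, so their levels are a description. Pdgfra stood at 455, 918 and 813 CPM in PDGFRA-high cells at E15.5, E17.5 and P7, against 94.2, 96.9 and 138 CPM in other collagen-rich cells. Bmp3, a BMP family member, stood at 407, 490.4 and 166 CPM, against 34.7, 15.3 and 11.8 CPM. Nrg1, which encodes neuregulin 1, stood at 218, 448 and 82.9 CPM, against 15.7, 4.16 and 3.8 CPM. Both were high in the 2 embryonic libraries and lower in the P7 one. Bmp5 stood at 92.1, 185 and 57 CPM in PDGFRA-high cells, against 11.8, 6.27 and 7 CPM. Bmp7 stood at 57, 94.8 and 104 CPM, against 6.08, 3.44 and 7.4 CPM. F3, which encodes tissue factor, stood at 26.9, 137 and 62.1 CPM, against 10.8, 12.8 and 13.2 CPM. Wnt5a, a non-canonical WNT ligand, was highest at P7, with 131, 216 and 461 CPM in PDGFRA-high cells, against 78.8, 43.4 and 41.4 CPM. Muscle cells held 144, 155 and 122 CPM of F3 and 121, 64.2 and 46.6 CPM of Wnt5a. Pdgfra was also high in cells that met the rule except for a sum of the 6 genes under 3. These 547, 678 and 148 cells held 294, 407 and 693 CPM of it. At P7 their interval, 633 to 757 CPM, overlapped that of PDGFRA-high cells, 691 to 951 CPM. In GRCm38, Pdgfra lies on chromosome 5 at 75152292 to 75198215 and Bmp3 on the same chromosome at 98854415 to 98884396, both on the plus strand. Nrg1 spans 31814551 to 32884029 of chromosome 8 (minus strand), and Wnt5a 28504750 to 28527448 of chromosome 14 (plus strand).

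**Figure D1:**
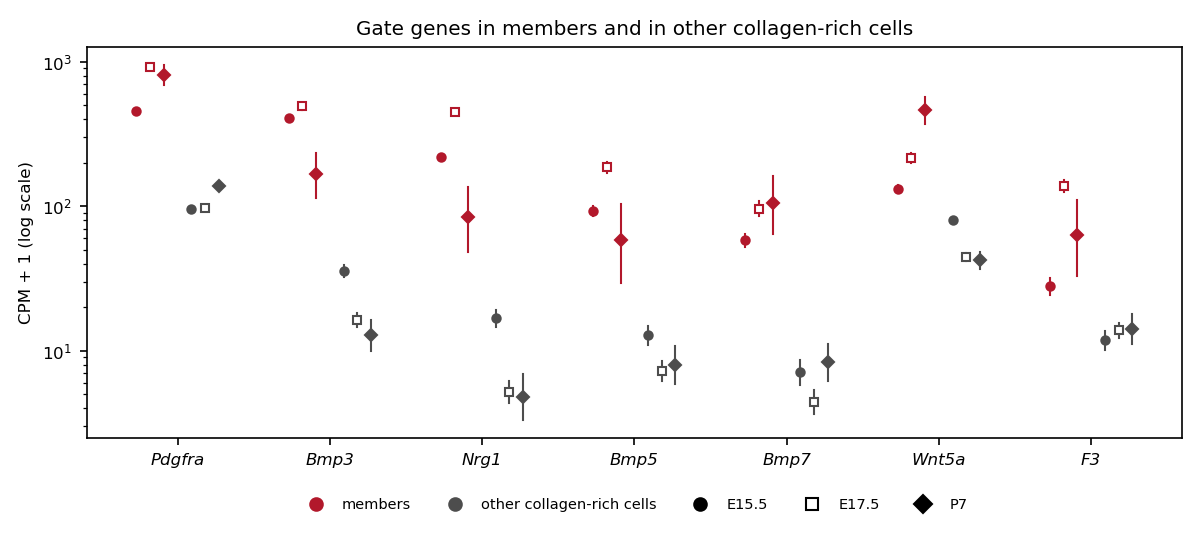
Levels of the genes of the rule in PDGFRA-high cells (members) and in other collagen-rich cells, by library, as CPM + 1 on a log axis; bars are exact Poisson intervals. Nrg1 and Bmp3 are highest at E17.5 (448 and 490.4 CPM), Wnt5a at P7 (461 CPM).

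Few cells had all 6 ligand and marker genes of the sum. At E15.5, 73, 200, 243, 174, 59 and 15 PDGFRA-high cells had a UMI of 1, 2, 3, 4, 5 and 6 of them, and at E17.5 the counts were 42, 114, 134, 141, 71 and 20. At P7 they were 16, 6, 7, 3, 2 and 0, so that 16 of 34 cells entered on a single gene of the sum. Bmp3 and Nrg1 were found together in 404 cells at E15.5 (52.9%), 266 at E17.5 (51%) and 4 at P7 (11.8%). Wnt5a alone reached 3 UMIs in 141, 92 and 22 cells.

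Cells just inside the thresholds held more RNA of several genes than cells just outside at the embryonic stages. Adamdec1, a secreted protease gene of gut fibroblasts that the rule did not use, stood at 1894 CPM in the 244 cells with exactly 2 Pdgfra UMIs and at 1601 CPM in the 308 cells that had 1 and met the other criteria. At E17.5 it stood at 3774 CPM in 105 cells and at 2360 CPM in 142 cells. At P7, with 8 and 11 cells, it stood at 525 CPM inside and 2536 CPM outside. For the sum of the 6 genes, Adamdec1 stood at 1086, 2681 and 815 CPM at a sum of 3, in 143, 68 and 17 cells. It stood at 892, 1059 and 626 CPM at a sum of 2, in 172, 123 and 23 cells. At E15.5 the gap was wider for Bmp2, with 52.4 CPM at 2 Pdgfra UMIs and 30.8 CPM at 1, and 26.2 CPM at a sum of 3 and 13.9 CPM at a sum of 2. At the same sums Foxl1 stood at 37.5 CPM inside and 22.7 CPM outside, and Sox6 at 8.25 CPM inside and 2.53 CPM outside, the last from 11 and 4 UMIs.

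The cells were divided by 3 genes of the rule, so the shares that follow do not by themselves show how well the name fits. A UMI of Bmp3, Nrg1 or Bmp5 was present in 695 PDGFRA-high cells at E15.5 (91%), 485 at E17.5 (92.9%) and 13 at P7 (38.2%). The other 69, 37 and 21 cells had entered on Wnt5a, Bmp7 or F3, and genes outside the rule separated them from the rest. Ednrb, which encodes endothelin receptor B, stood at 1028, 2032 and 933 CPM in cells with one of the 3 genes at E15.5, E17.5 and P7, against 46.3, 72.4 and 18.4 CPM in cells without. Adamdec1 stood at 2709, 5292 and 3933 CPM, against 281, 91.9 and 92.2 CPM. It was not particular to these cells at P7. Other collagen-rich cells held 538, 719 and 3403 CPM of it, and all PDGFRA-high cells of P7 held 1776 CPM. Fgf9, an FGF ligand, stood at 89.7, 227 and 129.9 CPM, against 0, 2.79 and 0 CPM. Ptch1 stood at 801, 935 and 779.6 CPM, against 212, 97.5 and 212 CPM. In these 4 genes the cells without Bmp3, Nrg1 or Bmp5 were low in every library. The 13 P7 cells with one of the 3 genes also differed from those of E17.5 in genes of adventitial fibroblasts. Clec3b stood at 319 CPM in them and Cd34 at 343 CPM, against 0.389 and 4.27 CPM at E17.5.

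Other genes ran the opposite way. Ptn, which encodes the growth factor pleiotrophin, stood at 183, 162 and 496 CPM in cells with Bmp3, Nrg1 or Bmp5, against 773, 1872 and 2223 CPM in cells without. Gas1, a Hedgehog co-receptor gene, stood at 45.4, 31.9 and 142 CPM, against 356, 493 and 729 CPM. Rgs5, a pericyte marker, stood at 47.7, 36.1 and 118 CPM, against 276, 418 and 424 CPM. The cells without were also deeper at the embryonic stages, with medians of 7109 and 4821 UMIs in cells with Bmp3, Nrg1 or Bmp5 at E15.5 and E17.5, against 9812 and 9232 UMIs in cells without. They held more RNA of a list of 31 cell cycle genes: 4326, 1008 and 661 CPM in cells with, against 6046, 8825 and 3597 CPM in cells without. The part of depth and of cell cycle in this division was not tested. Counts and ratios below are over all PDGFRA-high cells unless the cells with Bmp3, Nrg1 or Bmp5 are named.

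**Figure D2:**
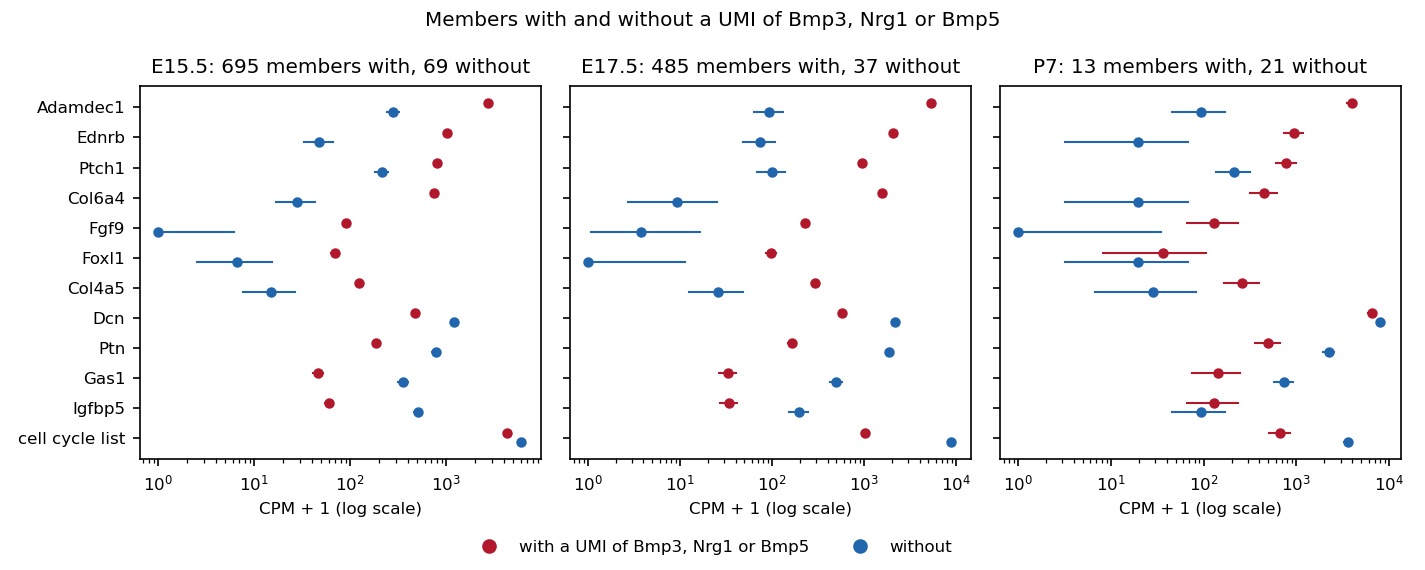
PDGFRA-high cells with and without a UMI of Bmp3, Nrg1 or Bmp5, by library, as CPM + 1 on a log axis; bars are exact Poisson intervals. Ednrb, Adamdec1, Fgf9 and Ptch1 lie higher in cells with one of the 3 genes in each library, Ptn and Gas1 in cells without.

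PDGFRA-high cells made up 10.9% of the 7012 cells with at most 2 Epcam UMIs at E15.5 (exact Clopper-Pearson interval 10.2 to 11.6%), 5.26% of 9921 at E17.5 (4.83 to 5.72%) and 1.68% of 2028 at P7 (1.16 to 2.33%). With each cell thinned to 4000 UMIs for Pdgfra and the 6 genes of the sum, the shares were 5.03%, 3.67% and 0.983%. The limits on Epcam and Actg2 stayed on the full counts, so depth could still bear on who met the Epcam limit. The order of the stages was kept, and the distance between E15.5 and E17.5 was smaller. Thinning left out 411, 2136 and 807 shallower cells, which is 5.86%, 21.5% and 39.8% of these cells. With the thresholds set per 10000 UMIs of a cell, the share was 10.3% at E15.5, 7.16% at E17.5 and 3.9% at P7. The sort and the dissociation also set these shares, and the part of each was not tested.

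Depth was close in both classes, while epithelial RNA was higher in PDGFRA-high cells at the embryonic stages. The median depth was 7364.5, 4980 and 5033.5 UMIs in PDGFRA-high cells and 7491.5, 5275.5 and 4651 UMIs in other collagen-rich cells, and the PDGFRA-high sums held 6874667, 2932159 and 193094 UMIs. Mitochondrial RNA made up 3.75%, 4.55% and 3.82% of them. A doublet caller marked 30, 19 and 0 PDGFRA-high cells (3.93%, 3.64% and 0%), against 1.33%, 2.73% and 0.69% of other collagen-rich cells. The list of 16 epithelial markers summed to 149.5, 447 and 1088 CPM in PDGFRA-high cells, against 87.2, 153 and 1160 CPM in other collagen-rich cells, and at E17.5 a single PDGFRA-high cell gave 235 UMIs of Fabp2, an enterocyte gene. Visceral muscle markers summed to 259.9, 303 and 456 CPM, against 266, 280.1 and 832 CPM, and pericyte markers to 307, 383 and 653 CPM, against 467, 490.3 and 730.0 CPM. Immune markers stood at 20.5, 36.2 and 31.1 CPM and endothelial markers at 7.13, 7.16 and 0 CPM in PDGFRA-high cells, and the part of these other cells' RNA in the results was not tested. The cell names deposited for the 3 libraries were identical lists of 8447 names, so barcodes shared between libraries could not be counted.

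Set beside other collagen-rich cells, the PDGFRA-high cells of the embryonic stages were higher in several basement membrane and ligand genes and lower in most chemokine genes, in many interstitial matrix genes and in the adventitial fibroblast genes, of which 5 of 5 were lower at both stages. The P7 contrast ran the other way: of 10 adventitial genes 7 were higher and 2 lower, at a median log2 ratio of 1.09. Of 28 interstitial matrix genes, 7 were higher and 1 lower at P7, at a median of 0.29. Over all genes at P7, 518 of 9073 were higher and 284 lower. Of 8836 genes outside the rule that were measured in all 3 libraries, 99 were higher in PDGFRA-high cells in every library (1.12%) and 60 were lower in every library (0.679%). At the 2 embryonic stages alone, 657 of 11178 genes were higher at both (5.88%) and 606 were lower at both (5.42%). The rule made this contrast, so these counts describe the chosen cells and nothing is tested on them. The medians over all genes were -0.02, -0.02 and 0.01 on the log2 scale at E15.5, E17.5 and P7.

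Col4a5, a chain of basement membrane collagen IV, had the highest smallest ratio among genes outside the rule that were past 1.5-fold in all 3 libraries. It stood at 112, 259 and 129 CPM in PDGFRA-high cells, against 5.92, 2.98 and 10.2 CPM in other collagen-rich cells, a log2 ratio of 4.24 (3.90 to 4.60), 6.44 (6.05 to 6.85) and 3.67 (2.91 to 4.38). Col4a6, the chain that pairs with it, stood at 19.2, 62.8 and 36.3 CPM, against 0.624, 0.771 and 2.2 CPM. Both genes were near the floor in the other cells and well above it in the PDGFRA-high ones. They lie head to head on the X chromosome of GRCm38, Col4a6 on the minus strand at 141165403 to 141474076 and Col4a5 on the plus strand at 141475385 to 141689234, with 1308 bases between their first bases. Their promoters are shown because the genes share this interval and were high in the same cells. Each line gives 300 bases, 250 before and 50 after the RefSeq start (GRCm38.p6), in the direction of the gene, from chromosome X 141475169 to 141475468 for Col4a5 and 141474027 to 141474326 for Col4a6. Capitals mark GGGCGG, the core of an SP1 site, or its other strand CCGCCC.
Col4a5: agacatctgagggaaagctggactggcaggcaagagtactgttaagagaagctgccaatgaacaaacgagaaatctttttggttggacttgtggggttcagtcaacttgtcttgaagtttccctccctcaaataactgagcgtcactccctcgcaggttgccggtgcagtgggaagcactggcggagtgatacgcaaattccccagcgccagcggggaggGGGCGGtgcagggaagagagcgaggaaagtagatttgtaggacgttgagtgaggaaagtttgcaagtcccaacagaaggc
Col4a6: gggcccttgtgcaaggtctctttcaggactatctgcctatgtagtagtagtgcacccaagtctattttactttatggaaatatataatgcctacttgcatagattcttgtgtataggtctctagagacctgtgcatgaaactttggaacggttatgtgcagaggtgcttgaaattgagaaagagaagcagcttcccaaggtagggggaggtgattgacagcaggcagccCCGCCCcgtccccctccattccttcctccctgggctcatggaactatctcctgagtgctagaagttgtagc
GGGCGG was found once in each window on either strand, as in 11714 of 32851 RefSeq promoters of this length (35.7%). CCAAT or its other strand ATTGG was found once for Col4a5 and not for Col4a6 (37.4% of promoters), and TATAAA or TTTATA in neither (13.6%). A match is a description of the letters only.

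Other basement membrane genes were high in the same cells. Of 17 genes of the basement membrane list that could be read at both embryonic stages, 8 were higher at both and 2 were lower. Lama5, the laminin alpha 5 chain of mature epithelial basement membrane, stood at 66.6, 159.6 and 31.1 CPM in PDGFRA-high cells, against 4.91, 4.22 and 10.8 CPM, with log2 ratios of 3.76 (3.38 to 4.17), 5.24 (4.90 to 5.60) and 1.53 (0.02 to 2.74). Without the collagen limit on the other cells its P7 ratio was -0.36. The laminin chain genes Lama4 and Lamc1 and the linker gene Nid1, for nidogen 1, were higher in every library. Nid1 stood at 155, 319 and 777 CPM, against 75.7, 132 and 328 CPM, and Lamc1 at 169, 285 and 269 CPM, against 78, 97.3 and 168 CPM. Lower at both embryonic stages were Sparc, a collagen-binding protein of matrix, and Lama2, the laminin alpha 2 chain. Sparc stood at 1660, 1420 and 9622 CPM in PDGFRA-high cells, against 3674, 6657 and 9601 CPM.

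The interstitial matrix was low at the embryonic stages. Of 28 genes of that list, 3 were higher at both and 13 were lower at both; the comparison class had been chosen for high collagen, and the part of that choice was not tested. Dcn, the proteoglycan decorin, stood at 542, 765 and 7307 CPM in PDGFRA-high cells, against 1618, 4655 and 8150 CPM, and Ogn, which encodes osteoglycin, at 130.2, 70.3 and 409 CPM, against 498, 705 and 338 CPM. Col14a1 and Postn, which encodes periostin, were lower at both embryonic stages too. The 3 higher genes were Col6a4, a collagen VI chain, Col12a1, a collagen of fibril surfaces, and Has2, which makes hyaluronan. Col6a4 stood at 671, 1371 and 207 CPM in PDGFRA-high cells, against 79.7, 150.3 and 150.0 CPM, with log2 ratios of 3.07 (2.98 to 3.17), 3.19 (3.12 to 3.26) and 0.47 (-0.03 to 0.93). It was high at both embryonic stages, and its P7 interval included 0. At P7 it stood at 449 CPM (318 to 616 CPM) in the 13 cells with Bmp3, Nrg1 or Bmp5 and at 18.4 CPM in the 21 cells without.

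Among secreted ligands outside the rule, Fgf9 was found in few of the other collagen-rich cells. It stood at 80.4, 199.5 and 57 CPM in PDGFRA-high cells, against 0.78, 0.925 and 0.6 CPM in other collagen-rich cells. A UMI of it was found in 262 of 764, 274 of 522 and 5 of 34 PDGFRA-high cells, against 9 of 1578, 13 of 3408 and 3 of 1014 others. The log2 ratios at E15.5 and E17.5 were 6.69 (5.80 to 7.76) and 7.75 (7.08 to 8.52). Bmp2 and Bmp4, ligands of the same BMP class that marks villus clusters, were also higher at both embryonic stages. Bmp2 stood at 94.1, 305 and 93.2 CPM, with log2 ratios over the other cells of 2.43 (2.21 to 2.66), 2.19 (2.07 to 2.32) and 0.66 (-0.12 to 1.34), and Bmp4 at 451, 512 and 223 CPM, against 297, 299.5 and 378 CPM. Bmp4 was lower in PDGFRA-high cells at P7, at a log2 ratio of -0.76 (-1.23 to -0.33). That difference lay in the 21 cells without Bmp3, Nrg1 or Bmp5, at 101 CPM, while the 13 cells with them stood at 378 CPM, as the other collagen-rich cells did. Bmp2 at P7 stood at 189 CPM in the cells with and 18.4 CPM in the cells without. Further ligands higher at both embryonic stages were Wnt5b, Fgf10, Inhba, the activin A subunit, and Tgfb1. Inhba stood at 17.7, 60.0 and 41.4 CPM in PDGFRA-high cells, against 3.35, 4.88 and 42 CPM. Rspo3, a WNT amplifier that supports stem cells, was lower in every library, at 40.0, 17.4 and 25.9 CPM in PDGFRA-high cells, against 104, 65.7 and 124 CPM. Its relative Rspo2 was lower at both embryonic stages, at 3.78 and 0.682 CPM, against 21 and 18 CPM.

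**Figure D3:**
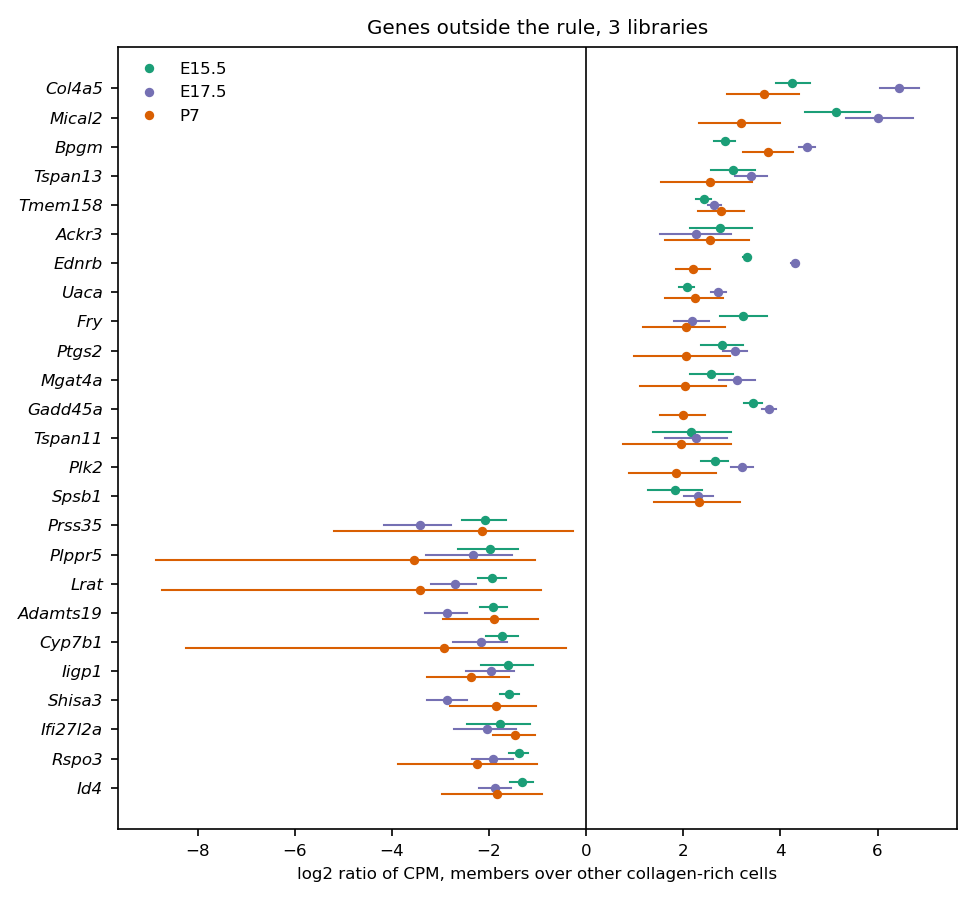
Log2 ratio of CPM, PDGFRA-high cells (members) over other collagen-rich cells, for the 15 highest and 10 lowest genes outside the rule in each library; bars are exact intervals and 0 marks equal levels. Col4a5 lies at 4.24, 6.44 and 3.67 at E15.5, E17.5 and P7.

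BMP receptor and response genes were divided. Of 12 BMP receptor and response genes read at both embryonic stages, 5 were higher at both and 1, Id4, was lower, and at P7 2 of 10 were higher and 2 lower. Id1, a direct BMP target that blocks differentiation factors, stood at 741, 996 and 77.7 CPM in PDGFRA-high cells, against 238, 134 and 23.4 CPM, with log2 ratios of 1.64 (1.57 to 1.70), 2.89 (2.82 to 2.97) and 1.73 (0.85 to 2.51). Without the collagen limit on the other cells the P7 ratio of Id1 was -0.19. Id2 was higher in every library as well, at 146, 459 and 186 CPM, against 56.9, 107 and 118 CPM. Id4 stood at 27.8, 27.6 and 46.6 CPM, against 69.9, 101 and 166 CPM, the reverse of its relatives. Id3, the receptor gene Acvr1 and the inhibitory Smad6 completed the 5. Of 7 BMP antagonist genes, Fst, Twsg1 and Chrd were higher at both embryonic stages, and Chrdl1 and Bambi were lower. Fst, which encodes follistatin, stood at 62.7, 88.7 and 46.6 CPM, against 18.8, 4.94 and 8.8 CPM. Of the 5 antagonists read in every library, it was the 1 that was higher in all 3. Grem1, the antagonist of crypt-base fibroblasts, stood at 5.96, 5.12 and 150.2 CPM, against 4.99, 41.3 and 303 CPM, and was not read at the embryonic stages because muscle cells held far more of it.

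The Hedgehog list did not move as a block. Of 12 genes, Ptch1, Hhip and Foxf2 were higher at both embryonic stages, and Gas1, Gli3 and Boc were lower at both. Ptch1, receptor and target in 1, stood at 740.1, 832 and 461 CPM in PDGFRA-high cells, against 255, 251 and 404 CPM, and its P7 level was 779.6 CPM in cells with Bmp3, Nrg1 or Bmp5 and 212 CPM in cells without. Hhip, a target that binds Hedgehog ligands, stood at 66.2, 68.2 and 155 CPM, against 14.8, 14.7 and 59.4 CPM, and was higher in all 3 libraries, but with thresholds per 10000 UMIs its P7 ratio was -0.48. Gli1, the target most often used to read the pathway, stood at 32, 32.1 and 57 CPM, against 27.4, 29 and 38.4 CPM, and its log2 ratios of 0.22, 0.14 and 0.57 all had intervals that included 0. Gas1 stood at 77.7, 88.3 and 471 CPM, against 163, 184 and 217 CPM.

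The WNT receptor and response list was divided in the same way, with 2 of 9 genes higher and 3 lower at both embryonic stages. The higher ones were Tcf7, a transcription factor of the canonical pathway, and Nkd2, an inhibitor of it. Tcf7 stood at 13.2, 23.9 and 10.4 CPM in PDGFRA-high cells, against 2.73, 2.11 and 6 CPM. Axin2, the common target, had log2 ratios of -0.20, 0.39 and 0.82, each with an interval that included 0. The lower ones were the receptor genes Fzd1, Fzd7 and Ror1, and Fzd1 was lower in all 3 libraries. Of 9 Notch genes, Dll1 and Notch4 were higher at both and 4 were lower, among them Notch2 and Notch3. Dll1, a Notch ligand, stood at 59.5 and 109.8 CPM at E15.5 and E17.5, against 4.76 and 10.5 CPM.

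Among transcription factor genes, Foxl1, the marker of subepithelial telocytes in mouse, stood at 61.7, 83.9 and 25.9 CPM in PDGFRA-high cells, against 9.28, 6.79 and 6.8 CPM. Sox6 stood at 26, 74 and 72.5 CPM, against 3.9, 5.76 and 4 CPM. At P7 Foxl1 and Sox6 had fewer than 50 UMIs in both sums together, so their ratios were not read there. Among the factors read in every library, Runx1 alone was higher in all 3, at 48.9, 245 and 62.1 CPM, against 24.9, 49.6 and 24 CPM. Tcf21 and Zeb2, factors of fibroblast progenitors and of mesenchyme, were lower in all 3. Zeb2 stood at 415, 175 and 383 CPM, against 734, 634 and 1127 CPM. Of 18 factors read at both embryonic stages, 5 were higher at both and 7 lower.

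Chemokine genes were mostly low. Of 10, 7 were lower at both embryonic stages and Ccl11, the eosinophil attractant eotaxin, was higher, at 469, 548 and 254 CPM, against 91, 365 and 515 CPM in other collagen-rich cells. Cxcl12 was lower in all 3 libraries, at 113, 110.2 and 388 CPM, against 231, 384 and 1204 CPM. Cxcl13, the B cell attractant, stood at 95.7, 127 and 98.4 CPM, against 572, 1237 and 82.8 CPM. The retinoic acid synthesis genes Aldh1a2 and Aldh1a3 were higher at both embryonic stages, and so was Cyp26b1, which degrades retinoic acid. Aldh1a2 stood at 178, 133 and 150.2 CPM, against 66, 53.4 and 241 CPM.

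Genes outside every list were also among the highest in all 3 libraries. Mical2, an actin oxidase gene, stood at 57.9, 69.2 and 93.2 CPM in PDGFRA-high cells, against 1.64, 1.08 and 10.2 CPM. Bpgm, best known for making 2,3-bisphosphoglycerate in red blood cells, stood at 128, 471 and 259 CPM, against 17.7, 20.3 and 19.4 CPM. Gadd45a, a stress response gene, stood at 224, 463 and 249 CPM, against 20.7, 34 and 62.4 CPM. Ptgs2, the inducible cyclooxygenase gene, stood at 31.7, 104 and 57 CPM, against 4.6, 12.3 and 13.8 CPM. Tmem158, Tspan13, Ackr3, Uaca, Fry, Mgat4a, Tspan11, Plk2 and Spsb1 completed the highest 15 with Col4a5 and Ednrb. The 10 lowest were Prss35, Plppr5, Lrat, Adamts19, Cyp7b1, Iigp1, Shisa3, Ifi27l2a, Rspo3 and Id4. Lrat, which stores retinol as esters, stood at 17.3, 14 and 5.18 CPM in PDGFRA-high cells, against 65.9, 91.6 and 56 CPM, and Adamts19, a secreted protease gene, at 18.2, 16 and 51.8 CPM, against 68.3, 117 and 192 CPM. The P7 values of Lrat, Plppr5 and Cyp7b1 were 1 UMI each in PDGFRA-high cells.

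The series centres on Slmap and Stk24, and the ratio of Stk24 passed 1.5-fold in no library. Slmap, which encodes a membrane-anchored member of the STRIPAK phosphatase complex, stood at 34.9, 41.6 and 62.1 CPM in PDGFRA-high cells, against 31.6, 35 and 61.8 CPM in other collagen-rich cells. It was more than 5 times higher in muscle cells, so its ratio was not read. Stk24, which encodes the kinase MST3, stood at 44.4, 50.1 and 51.8 CPM, against 36.9, 45.2 and 36 CPM, at log2 ratios of 0.27 (0.05 to 0.48), 0.15 (-0.11 to 0.40) and 0.53 (-0.56 to 1.44). Of 14 STRIPAK genes and 16 genes of Hippo kinases, YAP and TEAD read at both embryonic stages, 0 were higher and 0 were lower at both. The shares over all genes, counted without the 5-fold limit, were 5.88% and 5.42%. Under 1 gene of 14 would be called each way at those shares. In single libraries 1 of 13 STRIPAK genes was higher at P7, and 2 of 16 Hippo genes were higher at E17.5 and 1 of 16 at P7. Over all genes, 1449 of 11856 were higher at E17.5 and 518 of 9073 at P7, so these list counts were near the background.

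Within the PDGFRA-high cells, cells with more Pdgfra held more RNA of several subepithelial genes and less of the cell cycle genes. Cells were divided by Pdgfra per 10000 of their own UMIs into under 4, 4 to 8 and 8 or more, with 353, 239 and 172 cells at E15.5 and 71, 157 and 294 cells at E17.5. After thinning to 4000 UMIs, a UMI of the division genes Mki67 or Top2a was found in 63.2%, 25% and 12.5% of these cells at E15.5 and in 45.1%, 14% and 8% at E17.5. In cells with Bmp3, Nrg1 or Bmp5 alone the shares were 63%, 22.3% and 12.5% at E15.5 and 35.3%, 8.33% and 7.54% at E17.5. The rule itself made the cells low in Pdgfra deep, since a shallow cell with the required 2 UMIs cannot fall under 4 per 10000. The medians were 10081, 6455 and 5256.5 UMIs at E15.5 and 8386, 5014 and 4535.5 UMIs at E17.5. With the cells divided by Pdgfra UMIs left after thinning (0 or 1, 2 or 3, 4 or more), the shares were 59.8%, 32.5% and 12.3% at E15.5 and 38.4%, 16.3% and 7.3% at E17.5.

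Genes differed in how they ran with Pdgfra, and those given here were picked after their values were seen. From under 4 to 8 or more, Nrg1, a gene of the rule, stood at 99.4, 319 and 528 CPM at E15.5 and at 124, 368 and 651 CPM at E17.5. Ptch1 stood at 542, 927 and 1230 CPM at E15.5 and at 455, 737 and 1070 CPM at E17.5, while Gli1 stood at 31.2, 32.8 and 34 CPM at E15.5 and at 29.7, 25.2 and 37.6 CPM at E17.5. Foxl1 stood at 45.3, 77.7 and 101 CPM at E15.5 and at 37.6, 72.4 and 113 CPM at E17.5. Hhip stood at 50.9, 53.9 and 153 CPM at E15.5 and, out of order, at 53.2, 88.8 and 61.5 CPM at E17.5. Wnt5a stood at 127, 143 and 129 CPM at E15.5 and at 200.3, 214 and 225 CPM at E17.5. The matrix gene Dcn ran downward, at 663, 457 and 189.5 CPM at E15.5 and at 1365, 951 and 365 CPM at E17.5. The imprinted Notch ligand Dlk1 did so too, at 336, 209.9 and 47.4 CPM and at 324, 186 and 63.7 CPM. Depth, cell cycle and Pdgfra level moved together here, and the part of each was not tested.

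Across all genes, those with the largest ratio between the cells with 8 or more and the cells under 4 in both embryonic libraries included genes of the basement membrane and of receptors. Elovl7, a fatty acid elongase gene, stood at 65.9 CPM in the highest Pdgfra cells and 4.39 CPM in the lowest at E15.5, and at 91.9 CPM and 4.69 CPM at E17.5. Glp2r, the receptor for the gut hormone GLP-2, stood at 95.8 CPM in the highest and 5.85 CPM in the lowest at E15.5, and at 111 CPM and 14.1 CPM at E17.5. Col4a5, Col4a6, Lama5 and Npnt, which encodes nephronectin, were in the same set. Npnt stood at 95.8 CPM in the highest and 14.1 CPM in the lowest at E15.5, and at 287 CPM and 21.9 CPM at E17.5. Ptn, Lox and Col14a1 were among the lowest, with Lox, the collagen crosslinker, at 1.03 CPM in the highest and 81.9 CPM in the lowest at E15.5, and at 18.1 CPM and 161 CPM at E17.5.

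**Figure D4:**
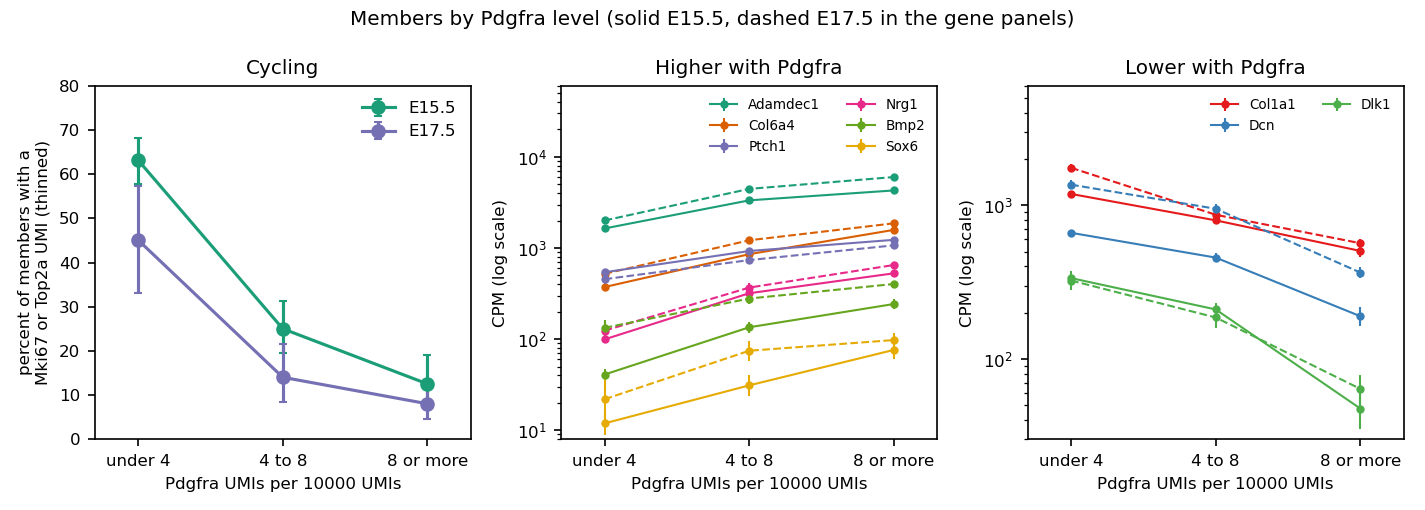
PDGFRA-high cells (members) by Pdgfra per 10000 UMIs, under 4, 4 to 8 and 8 or more, at E15.5 and E17.5. The left panel plots the percent of thinned cells with a Mki67 or Top2a UMI (63.2% to 12.5% at E15.5), the others plot CPM on a log axis; bars are exact intervals.

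E17.5 was set against E15.5 within the PDGFRA-high cells. At E17.5 the cells held less cell cycle and sterol synthesis RNA and more RNA of immediate early genes, chemokines, TGF-beta family genes and basement membrane genes. Of 10139 genes measured, 1103 were higher at E17.5 (10.9%) and 1472 lower (14.5%), with a median over all genes of -0.11 on the log2 scale. The same step in other collagen-rich cells had a median of -0.11 as well, with 1351 of 12349 genes higher and 1304 lower.

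Of 31 cell cycle genes, 0 were higher and 30 were lower at E17.5, at a median log2 ratio of -1.20, and 24 of 31 were lower in other collagen-rich cells, at a median of -0.81. Top2a stood at 195 CPM at E17.5, against 507 CPM at E15.5, and Ube2c, which drives exit from mitosis, at 169 CPM, against 455 CPM. In cells with Bmp3, Nrg1 or Bmp5 alone the decrease was deeper, with log2 ratios of -2.34 for Top2a and -2.68 for Ube2c, where all PDGFRA-high cells gave -1.38 and -1.43. The whole list summed to 4504, 1965 and 2310 CPM in PDGFRA-high cells at E15.5, E17.5 and P7, against 3702, 2198 and 1878 CPM in other collagen-rich cells, at log2 ratios of 0.28, -0.16 and 0.30. With thresholds per 10000 UMIs the ratios were -0.18, -0.71 and -0.22, and in cells with Bmp3, Nrg1 or Bmp5 alone 0.22, -1.13 and -1.51. The share of thinned cells with a Mki67 or Top2a UMI was 40.2%, 16.6% and 20.8%, against 40.5%, 24.3% and 22.1%. At E17.5 it was 9.78% (6.9 to 13.3%) in cells with Bmp3, Nrg1 or Bmp5 and 76.5% (58.8 to 89.3%) in the few cells without. Of 10 cell cycle inhibitor genes, 6 were higher at E17.5 and 0 lower. Btg2 and Cdkn1c, which encodes the imprinted inhibitor p57, were among them, Cdkn1c with 1476 CPM at E17.5, against 966 CPM at E15.5.

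Sterol synthesis genes were lower in both classes, 14 of 16 in PDGFRA-high cells at a median of -1.25 and 16 of 16 in other collagen-rich cells at a median of -1.90. Hmgcs1, an early enzyme of the pathway, stood at 57 CPM at E17.5, against 175 CPM at E15.5. The list of dissociation and stress genes was higher in 13 of 16 in PDGFRA-high cells, at a median of 1.54, and in 10 of 16 in other collagen-rich cells, at a median of 0.75. Summed, it stood at 5729, 15481 and 19156 CPM in PDGFRA-high cells at E15.5, E17.5 and P7, against 8287, 13871 and 21323 CPM. Atf3, a stress-induced factor, stood at 318 CPM at E17.5, against 37.5 CPM at E15.5, and Fos at 2305 CPM, against 949 CPM. Whether handling after dissection took part in this step was not tested.

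Most chemokine genes were also higher at E17.5, in both classes. Of 10, 6 were higher at E17.5 in PDGFRA-high cells, at a median of 2.51, and 9 in other collagen-rich cells, at a median of 2.63. Cxcl2 stood at 210.1 CPM at E17.5, against 10.3 CPM at E15.5, and Cxcl10 at 326 CPM, against 21.4 CPM. Ier3, an early response gene, stood at 745 CPM, against 49.2 CPM, a log2 ratio of 3.92 (3.75 to 4.09). These genes rank with Cxcl5, Col6a5, a collagen VI chain, and the long noncoding AW112010 among the 10 highest of all genes. The EGF family ligand genes Areg and Ereg are there too, Areg with 28.6 CPM at E17.5 in 32 cells, against 1.02 CPM at E15.5, and Ereg with 18.8 CPM in 36 cells, against 0 UMIs. Il22, at 28 CPM at E17.5, against 0.582 CPM at E15.5, came from 5 cells, 1 of which gave 78 UMIs. Cdo1, the cysteine dioxygenase gene, stood at 45 CPM, against 2.04 CPM, and at E17.5 it was at 10.1 CPM in cells with Bmp3, Nrg1 or Bmp5 and 295 CPM in cells without.

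Several ligand genes and many TGF-beta pathway and basement membrane genes were higher at E17.5. The list counts that follow stand beside shares over all genes of 10.9% higher and 14.5% lower. Of 9 WNT receptor and response genes, 2 were higher and 0 lower, and of 9 Notch genes, 2 were higher and 1 lower. Of 12 genes of the subepithelial list outside the rule, 8 were higher and 0 lower, at a median of 1.13; in other collagen-rich cells 6 of 11 were higher, at a median of 0.78. Bmp2 stood at 305 CPM at E17.5, against 94.1 CPM at E15.5, a log2 ratio of 1.70 (1.55 to 1.85), beside 1.94 in other collagen-rich cells. Fgf9 stood at 199.5 CPM, against 80.4 CPM, and Wnt4 at 51.5 CPM, against 6.98 CPM. Of 10 TGF-beta pathway genes, 8 were higher and 0 lower, at a median of 0.86. Inhba stood at 60.0 CPM, against 17.7 CPM, and Tgfb3 at 66.8 CPM, against 23.4 CPM. Of 17 basement membrane genes, 9 were higher and 0 lower, among them Npnt, with 176 CPM at E17.5, against 30.1 CPM at E15.5. Id2 and Id3 were higher among the BMP response genes, Id3 with 1819 CPM, against 924 CPM. Of 12 Hedgehog genes, 0 were higher and Gli2 was lower.

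Sfrp2 and Col4a5 moved in opposite directions in the 2 classes between the embryonic stages. Sfrp2, a secreted WNT inhibitor, stood at 154 CPM at E17.5, against 36.8 CPM at E15.5, in PDGFRA-high cells, and at 21.8 CPM, against 43.7 CPM, in other collagen-rich cells. The log2 ratios were 2.06 (1.84 to 2.29) and -1.0. Col4a5 gave 1.21 (1.06 to 1.35) and -0.99. Runx1 was higher at E17.5 in PDGFRA-high cells, with 245 CPM, against 48.9 CPM, and Zeb2 and Fgfr2 were lower, Fgfr2 with 18.1 CPM, against 59.8 CPM. The lowest of all genes was AA465934, with 1.02 CPM at E17.5, against 48.6 CPM at E15.5, but it stood at 0.617 CPM, against 56.4 CPM, in other collagen-rich cells too. Hist1h2ap, Cldn11, Nr2f1, Wdhd1, Hist1h3b, Fndc3c1, Msmo1 and Pclaf were also among the lowest 10, of which Hist1h2ap, Wdhd1, Hist1h3b and Pclaf belong to DNA replication or histones. Of 13 STRIPAK genes, 0 were higher and 0 lower; of 16 Hippo genes, 0 were higher and Tead2 was lower.

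**Figure D5:**
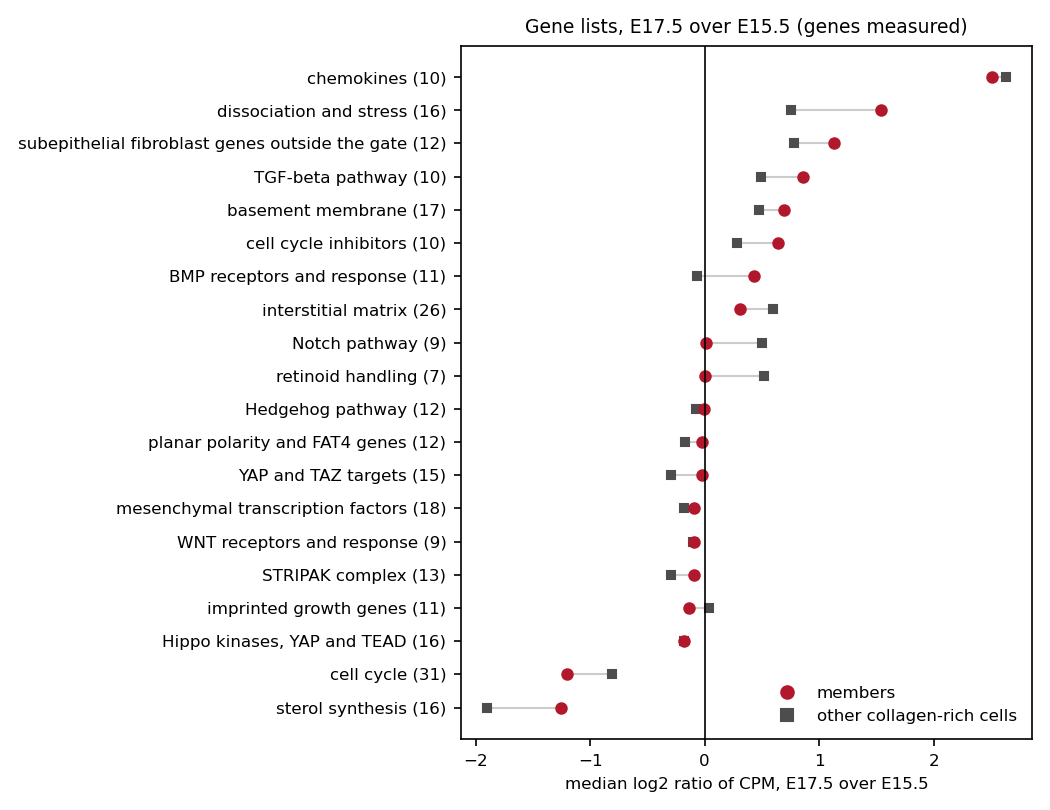
Median log2 ratio of each gene list of CPM, E17.5 over E15.5, in PDGFRA-high cells (members, circles) and in other collagen-rich cells (squares); numbers in brackets are the genes measured. Cell cycle (-1.20) and sterol synthesis (-1.25) lie lowest and chemokines (2.51) highest in PDGFRA-high cells.

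The 34 PDGFRA-high cells of P7 carried matrix and adventitial genes that the embryonic ones held at low levels, and less RNA of 7 of 12 subepithelial genes and of Id1, Id2 and Id3. Of 10 BMP receptor and response genes, 2 were higher and 3 lower, and of 4 BMP antagonists, 1 was higher and 0 lower. Of 6926 genes measured, 778 were higher at P7 than at E17.5 (11.2%) and 609 lower (8.79%), at a median of -0.01 on the log2 scale. With cells that had Bmp3, Nrg1 or Bmp5 alone, 13 at P7, 474 were higher and 329 lower. All of these values rest on 193094 UMIs at P7, where 1 UMI is about 5.18 CPM. In other collagen-rich cells the same step gave 2337 of 12148 genes higher and 1000 lower, at a median of 0.13. Those cells thus had a larger share of genes higher, and their list counts below stand beside it.

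Of 27 interstitial matrix genes, 20 were higher at P7 and 3 lower, at a median of 2.14; in other collagen-rich cells 15 of 29 were higher, at a median of 0.60. Dcn stood at 7307 CPM at P7, against 765 CPM at E17.5, a log2 ratio of 3.26 (3.16 to 3.35), and at 3.52 in cells with Bmp3, Nrg1 or Bmp5 alone. Postn stood at 1947 CPM, against 110.2 CPM, and Eln, which encodes elastin, at 1155 CPM, against 66.2 CPM. Of 7 adventitial fibroblast genes, 6 were higher and 0 lower, at a median of 4.34, with a median of 3.13 in other collagen-rich cells. Clec3b, which encodes tetranectin, stood at 419 CPM at P7, against 1.36 CPM at E17.5, and Cd34 at 274 CPM, against 4.77 CPM. Mfap5, a protein of microfibrils, stood at 859.7 CPM, against 3.07 CPM, a log2 ratio of 8.13 (7.17 to 9.28). The adventitial genes were present in both subsets at P7: Clec3b stood at 319 CPM in cells with Bmp3, Nrg1 or Bmp5 and 498 CPM in cells without, and Cd34 at 343 CPM and 221 CPM. Lpl, Tnxb, Fbln5, Olfml2b, Ifi27l2a, Pi15 and Thbs3 completed the highest 10 of all genes.

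Of 12 subepithelial genes outside the rule, 3 were higher at P7 and 7 lower, at a median of -1.45. Dll1 stood at 10.4 CPM at P7, against 109.8 CPM at E17.5, and Ednrb at 419 CPM, against 1792 CPM. Several of these decreases were smaller in the 13 cells with Bmp3, Nrg1 or Bmp5: the log2 ratio of Ednrb was -1.12 in place of -2.10, that of Bmp2 -0.87 in place of -1.71, and that of Fgf9 -0.80 in place of -1.81. Bmp4, Fgf9, Foxl1, Foxf2, Ptch1, Vgll4 and Col4a5 were no longer called in those cells, Foxl1 at -1.43 in place of -1.70, a change about as large on fewer UMIs, Ptch1 at -0.26 in place of -0.85 and Col4a5 at -0.16 in place of -1.0. With stricter thresholds Col4a5 was at 0.12. Id1 was not of this kind. It stood at 77.7 CPM at P7, against 996 CPM at E17.5, a log2 ratio of -3.68 (-4.52 to -2.96), and at -3.75 in cells with Bmp3, Nrg1 or Bmp5, beside -2.52 in other collagen-rich cells. Id2 and Id3 were lower as well, at -1.30 and -1.72, and at -0.66 and -1.45 in the 13 cells.

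Col6a4, Mgst1, which encodes a microsomal glutathione transferase, and Lmo3, a transcription cofactor gene, were among the 10 lowest genes at P7. Col6a4 stood at 207 CPM at P7, against 1371 CPM at E17.5, and Mgst1 at 46.6 CPM, against 449.8 CPM. Lmo3 stood at 20.7 CPM, against 246 CPM, and at -2.57 in place of -3.57 in cells with Bmp3, Nrg1 or Bmp5. Chp2, Ctxn3, Bdkrb2 and Foxq1 had no UMI in PDGFRA-high cells at P7, against 138, 93.8, 86.3 and 81.9 CPM at E17.5. With the P7 count set at 3 UMIs, the log2 ratio was -3.15 for Chp2 and -2.40 for Foxq1. In cells with Bmp3, Nrg1 or Bmp5 alone, set in the same way, it was -2.14 and -1.40. Cwc22, a splicing factor gene, stood at 31.1 CPM at P7, against 289 CPM at E17.5, but at 19.4 CPM, against 225 CPM, in other collagen-rich cells, and at 28.4 CPM and 26.7 CPM in the 2 classes at E15.5. Ccl2 was lower in both classes too.

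The Hedgehog list divided at P7. Of 8 genes, Gas1 and Hhip were higher and Ptch1, Foxf1 and Foxf2 were lower. Gas1 stood at 471 CPM at P7, against 88.3 CPM at E17.5, and within P7 at 142 CPM in cells with Bmp3, Nrg1 or Bmp5 and 729 CPM in cells without. Hhip stood at 155 CPM, against 68.2 CPM, a log2 ratio of 1.19 that turned to -0.68 with thresholds per 10000 UMIs and to -0.23 with Epcam at 0 UMIs. Foxf1, the mesenchymal Hedgehog target, stood at 145 CPM, against 412 CPM, and at a log2 ratio of -1.27 in cells with Bmp3, Nrg1 or Bmp5. Of 26 cell cycle genes 1 was higher and 0 were lower, and 34 of the 35 Mki67 UMIs of P7 lay in cells without Bmp3, Nrg1 or Bmp5. Few cells gave them, since only 6 of 34 held a Mki67 or Top2a UMI. After thinning, the share of cells with such a UMI was 0% (0 to 33.6%) of 9 cells with Bmp3, Nrg1 or Bmp5. It was 26.7% (7.79 to 55.1%) of 15 cells without, and the intervals overlapped. Sterol genes were higher in 5 of 11, with Hmgcs1 at 223 CPM at P7, against 57 CPM at E17.5. Of 11 STRIPAK genes 0 were higher and 0 lower, and of 16 Hippo genes Lats2 and Frmd6 were higher and Vgll4 was lower.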

How the data were processed

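Deposited whole-number UMI counts per gene and cell, 1 table per library, came from Cell Ranger 7.2.0 with mm10 (GRCm38) per the submitters' processing notes. Counts were used as the authors deposited them, with 22100 genes. UMIs were summed per class and library and divided by the UMIs of the class. Intervals are exact Poisson, Clopper-Pearson or, for ratios, conditional binomial, and cover counting error only. A count of 0 was set at 3 UMIs in ratios. Depth was 93501273, 94023160 and 116038115 UMIs per library at E15.5, E17.5 and P7. Scrublet in scanpy 1.11.5 marked doublets, which were kept. Python 3.11.15, numpy 2.4.6, scipy 1.17.1, pandas 2.3.3 and matplotlib 3.10.9 were used, and ratios were checked on simulated data. The members and gene lists were chosen with earlier results of these data known. Named genes were the genes of the rule, the extremes and 2 most abundant of each list, the 10 highest and lowest per stage step, the 15 highest and 10 lowest against other collagen-rich cells, and Slmap and Stk24, leaving out mitochondrial, ribosomal protein, haemoglobin, Y-linked and unnamed genes and Xist. Further list genes were named after their values were seen. Alternatives are described below; those with no collagen threshold, with cells that had Bmp3, Nrg1 or Bmp5 alone, and with cells divided by thinned Pdgfra were chosen after seeing the data. One gene that the rule names is not reported here.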

Additional observations from a re-analysis of the deposited data

Results flagged for a closer look

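Between E15.5 and E17.5, 2 named genes passed 1.5-fold in opposite directions in the 2 classes, and the difference between the classes was not tested. The log2 ratio of Col4a5 was 1.21 in PDGFRA-high cells and -0.99 in other collagen-rich cells. For Sfrp2 the ratios were 2.06 and -1.0.

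Between E17.5 and P7, 8 named genes did so, and again the difference was not tested. Higher at P7 in PDGFRA-high cells and lower in other collagen-rich cells were Col14a1, at 2.33 and -1.10, and Ogn, at 2.54 and -1.06. Lower at P7 in PDGFRA-high cells and higher in the others were Col4a5, at -1.0 and 1.77, Foxf2, at -1.08 and 1.13, and Lama5, at -2.36 and 1.36. Lmo3 stood at -3.57 and 0.92, Npnt at -1.63 and 3.98, and Ptch1 at -0.85 and 0.68. In the 13 P7 cells with Bmp3, Nrg1 or Bmp5, the ratios of Col4a5, Foxf2 and Ptch1 were -0.16, -0.33 and -0.26 and were no longer called.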

How the results depend on the processing

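Of 3478 values of named genes under the alternatives, 3360 kept their direction and call, 110 lost the call and 8 reversed; the cause was not tested. Reversed were, with stricter thresholds, Col4a5 at P7 over E17.5 (0.12) and Cyp7b1 at P7 (0.46); with thresholds per 10000 UMIs, Hhip at P7 (-0.48) and over E17.5 (-0.68); with Epcam at 0, Hhip over E17.5 (-0.23); and with no collagen threshold at P7, Fry (-0.03), Id1 (-0.19) and Lama5 (-0.36). The cell cycle list, PDGFRA-high over other collagen-rich cells, gave log2 ratios at E15.5 of 0.32 without marked doublets, 0.04 with stricter thresholds, -0.18 per 10000 UMIs, 0.18 with Epcam at 0, 0.23 with no collagen threshold and 0.22 with Bmp3, Nrg1 or Bmp5. At E17.5 it gave -1.30 (stricter), -0.71 (per 10000), -0.41 (no collagen threshold) and -1.13 (with Bmp3, Nrg1 or Bmp5), and at P7 -0.14, -0.22 and -1.51 (stricter, per 10000, with Bmp3, Nrg1 or Bmp5). PDGFRA-high shares at E15.5, E17.5 and P7 were 5.49%, 3.33% and 0.493% with stricter thresholds and 5.03%, 3.67% and 0.983% after thinning, and 10.3%, 7.16% and 3.9% per 10000 UMIs. Genes called at P7 over E17.5 were 349 higher and 219 lower with stricter thresholds, 474 and 329 with Bmp3, Nrg1 or Bmp5, and 1689 and 1649 by mean CPM per cell. Calls by mean CPM per cell used the 1.5-fold limit alone, without an interval, so their counts cannot be compared with the others. Genes higher and lower in PDGFRA-high cells in all 3 libraries were 211 and 257 by mean CPM per cell, and 115 were lower per 10000 UMIs. At a minimum of 200 UMIs, 44 were higher in all 3 libraries, 573 higher and 863 lower at E17.5 over E15.5, and 288 higher at P7 over E17.5. Counts at P7 rest on 34 cells. No paired analysis was possible because each stage was 1 library.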
